A study of Rattus norvegicus with 16 samples.

Results

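The insulin-like growth factor system consists of 2 secreted ligands, their receptors and a family of binding proteins that hold the ligands outside the cell. The 9 genes listed here were Igf1, Igf2, Igf1r, Igf2r and Igfbp2 to Igfbp6. Members were all probe sets that carry 1 of these symbols alone in the array's probe table. This gave 23 of the 8799 probe sets, from 8 of the 9 genes, where the whole array had 4737 genes with a probe set of 1 symbol. Igf1 had 5 probe sets, Igf2 6, Igf1r 2, Igf2r 1, Igfbp2 3, Igfbp3 2, Igfbp5 3 and Igfbp6 1. Igfbp4 had no entry in that table and was not analysed here. Of the 23 probe sets, 21 were bright enough to be tested, and an Igf2 probe set (X16703_i_at) and an Igfbp5 probe set (rc_AI070577_at) were not.

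Total RNA of rat skeletal muscle had been hybridised to 16 short oligonucleotide arrays. EOM, the extraocular muscle that moves the eye, had 4 arrays, numbered 1 to 4. TA_6h, muscle labelled TA and collected at 6 hours, had 8 arrays of 4 numbered samples, and TA_1h, collected at 1 hour, had 4 arrays of 2 numbered samples. The labels give no age, strain, sex or treatment, no collection time for EOM and no event from which the hours count, and nothing in them says that numbers are separate animals. The p-values below therefore rest on a spread between samples that may be only technical.

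IGF1 and IGF2 are small peptides related to insulin. Both bind the IGF1 receptor, a tyrosine kinase that feeds the PI3 kinase, Akt and mTOR branch and the Ras and MAP kinase branch, whereas the IGF2 receptor, which also sorts lysosomal enzymes, takes IGF2 into the cell for breakdown. Binding proteins prolong the life of the ligands or keep them from the receptor, and proteases that cut them set the ligands free. In skeletal muscle IGF1 is a well-known local growth factor for fibres and their precursor cells, and IGF2 is made by differentiating myoblasts.

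Values are scaled intensities on a linear scale. Values under a floor of 56.5 (the 25th percentile of all intensities) were raised to it, log2 was taken, and differences were tested with limma over 7640 probe sets. A probe set was called at a Benjamini-Hochberg adjusted p under 0.05. A ± after a log2 difference is its standard error, and a ± after a mean intensity is the SD over numbered samples (n = 4 in EOM, 4 in TA_6h and 2 in TA_1h). Levels of different probe sets cannot be set against each other. In the EOM columns 24.3% of intensities lay below 0 and in the TA columns none did, so in every EOM comparison the muscle and the way its intensities were summarised cannot be told apart. An array control for beta-actin gave a ratio of middle to 3′ signal between 0.146 and 0.390 on 5 TA arrays (TA_6h 3a, 3b, 4a and 4b and TA_1h 2b), against 0.815 to 1.28 on the other 11 arrays. The 5 are called the low-ratio TA arrays below. They hold every array of TA_6h numbers 3 and 4, so leaving them out leaves TA_6h with 2 numbered samples. A call can then be lost through fewer samples as well as through a smaller difference. The GAPDH control split the TA arrays differently: its ratio was 0.161 to 0.399 on 4 others (TA_6h 1b and 2b and TA_1h 1a and 2a) and 0.788 to 1.52 on the remaining 12 arrays, the 5 low-ratio ones included. Between these 4 and the other TA arrays 0 of 23 members and 70 of 7640 probe sets had no overlap.

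Promoters are shown for the 4 genes with a probe set called higher in EOM than in TA_6h. Each is 300 bases, 250 before the start of transcription and 50 after it, from RefSeq on GRCr8, with E-boxes (CANNTG, the letters that basic helix-loop-helix factors such as the myogenic ones recognise) in capitals.
Igf1 (chr7:24172282-24172581, plus strand): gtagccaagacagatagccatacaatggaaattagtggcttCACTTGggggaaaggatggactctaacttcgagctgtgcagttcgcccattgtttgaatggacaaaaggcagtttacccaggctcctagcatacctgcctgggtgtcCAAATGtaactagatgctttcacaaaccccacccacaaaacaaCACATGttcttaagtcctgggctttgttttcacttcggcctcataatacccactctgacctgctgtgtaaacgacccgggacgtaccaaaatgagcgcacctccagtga
Igfbp3 (chr14:86277895-86278194, minus strand): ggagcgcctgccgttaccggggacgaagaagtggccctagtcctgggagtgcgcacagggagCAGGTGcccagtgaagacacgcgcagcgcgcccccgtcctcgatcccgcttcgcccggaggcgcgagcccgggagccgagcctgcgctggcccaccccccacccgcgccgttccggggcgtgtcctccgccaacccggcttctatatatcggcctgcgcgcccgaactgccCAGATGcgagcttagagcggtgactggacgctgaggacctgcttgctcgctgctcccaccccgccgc
Igfbp5 (chr9:81914138-81914437, minus strand): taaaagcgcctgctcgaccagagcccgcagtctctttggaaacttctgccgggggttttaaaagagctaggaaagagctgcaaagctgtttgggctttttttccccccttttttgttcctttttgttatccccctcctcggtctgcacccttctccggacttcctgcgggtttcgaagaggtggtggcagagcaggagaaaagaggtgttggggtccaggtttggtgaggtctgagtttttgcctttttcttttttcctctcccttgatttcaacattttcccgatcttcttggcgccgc
Igfbp6 (chr7:135154669-135154968, plus strand): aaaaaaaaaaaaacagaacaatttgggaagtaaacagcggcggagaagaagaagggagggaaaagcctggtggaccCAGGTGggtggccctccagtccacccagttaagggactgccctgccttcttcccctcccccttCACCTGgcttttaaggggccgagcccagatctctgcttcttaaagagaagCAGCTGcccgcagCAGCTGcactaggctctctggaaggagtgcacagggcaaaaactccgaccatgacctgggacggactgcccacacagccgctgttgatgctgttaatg
Such an E-box, searched on both strands, stood in 72.1% of all 33469 promoters of this length, so the 3 in Igf1, the 2 in Igfbp3 and the 4 in Igfbp6 are a description of the letters. No match was found in the Igfbp5 window. The Igfbp6 promoter held 2 copies of CAGCTG, an E-box form, at 61 and 48 bases before the start (positions -61 and -48). That form stood in 15.1% of all promoters. TATAAA, in 14.2% of them, had no match in these 4 windows and 1 in that of Igfbp4, at position -40.

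Between EOM and TA_6h, 5 member probe sets were called higher and 5 lower, and 11 of the 21 were not called. Over all probe sets tested 21.9% were called higher and 25.3% lower, so these shares, 23.8% each, were near the background. The median member difference was 0.07 on the log2 scale and that of all probe sets -0.11. Against TA_1h, 4 were called higher and 2 lower, beside a background of 17.7% and 19.5%. Against TA_6h the higher ones belonged to Igf1, Igfbp3, Igfbp5 and Igfbp6, and the lower ones to Igf1, Igf2, Igf1r and Igf2r. With arrays scaled to a common median, which moved the median difference of all probe sets by -0.31, 4 members were higher and 7 lower than in TA_6h, and over all probe sets the split of 1671 higher and 1935 lower became 996 and 2911. Without the 4 arrays of low GAPDH ratio, an alternative chosen after seeing the data, 4 members were higher and 4 lower than in TA_6h. Of all probe sets 19.2% were then called higher and 21.5% lower. The call of Igf1r L29232_at (-1.14, adjusted p = 0.053) and that of Igfbp3 M31837_at (0.78, adjusted p = 0.053) were then lost. The 2 comparisons share the EOM samples.

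**Figure D1:**
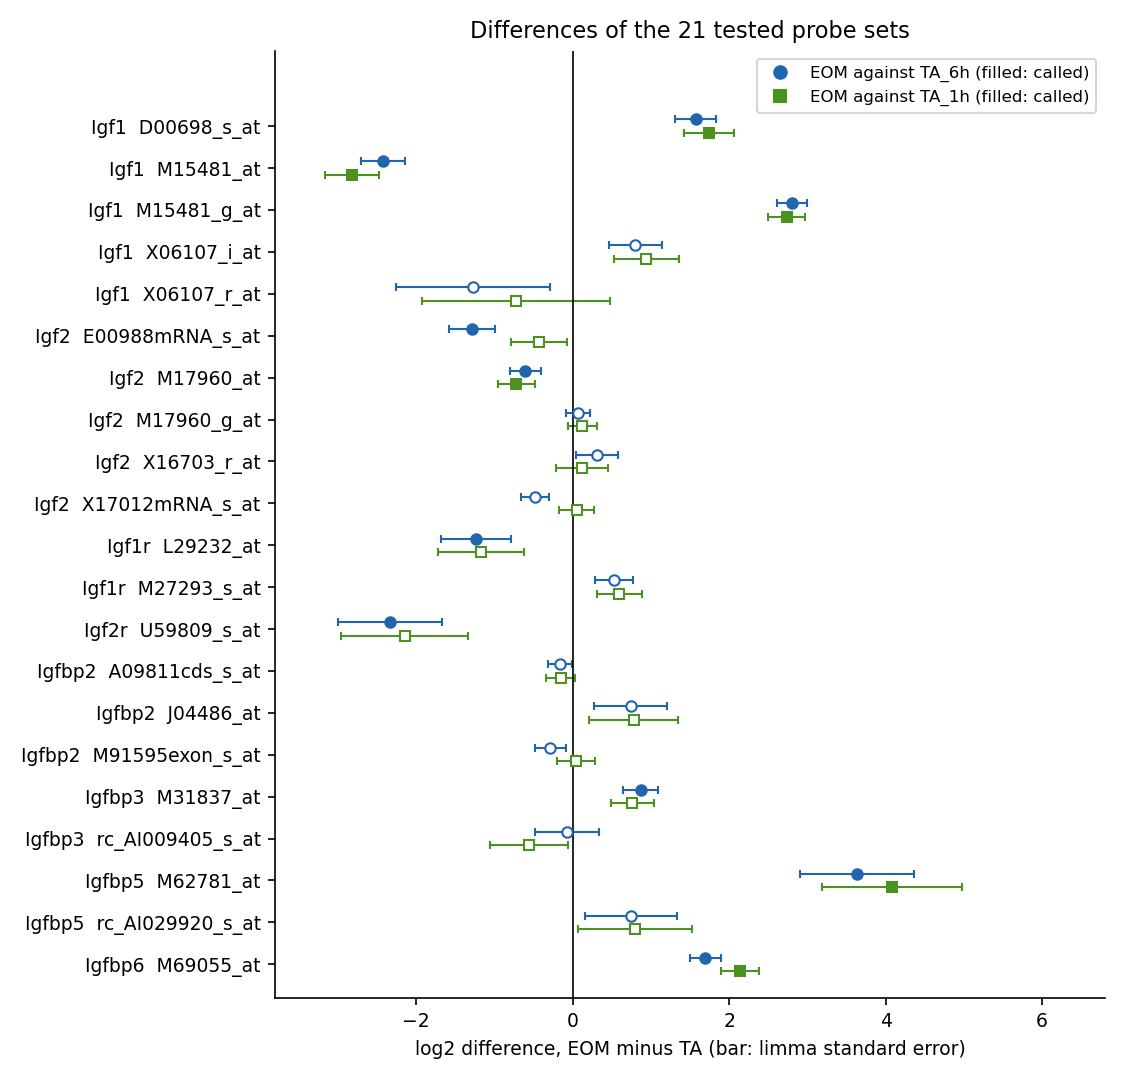
Log2 difference of each tested probe set between EOM and TA_6h (circles) and between EOM and TA_1h (squares), with limma standard errors; filled symbols were called at an adjusted p under 0.05. Igf1 M15481_g_at, Igfbp5 M62781_at and Igfbp6 M69055_at lie to the right of 0 against both TA groups, and Igf1 M15481_at and Igf2r U59809_s_at to the left, the last called against TA_6h alone.

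Igf1, the ligand through which growth hormone acts on many tissues, had the probe set with the smallest adjusted p among the members. M15481_g_at read 6455, 4631, 5530 and 4575 on the 4 EOM arrays, from 532 through a median of 727 to 1070 on the TA_6h arrays, and 747, 718, 627 and 1137 on the TA_1h arrays. Every EOM array lay above every TA array, and the TA groups overlapped. The difference was 2.81 ± 0.19 against TA_6h, a 7.01-fold higher level (adjusted p = 3.2e-06), and 2.74 ± 0.24 against TA_1h (adjusted p = 2.4e-05). Over the 26 alternatives the difference from TA_6h ran between 2.34 and 2.99. A second Igf1 probe set moved the same way at a low level. D00698_s_at read 233, 229, 157 and 234 in EOM, whereas 3 of 8 TA_6h arrays and 1 of 4 TA_1h arrays were above the floor, and the highest TA array, one of TA_6h, read 130.4. Its difference of 1.57 ± 0.26 against TA_6h (adjusted p = 9.0e-04) is a lower limit, since most TA arrays lie at the floor.

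Another Igf1 probe set went the other way. M15481_at, which carries the same GenBank accession as M15481_g_at, read 107, 115, 35.2 and -171 in EOM, from 197 through a median of 444 to 717 in TA_6h, and 489, 723, 444 and 617 in TA_1h. All EOM arrays lay below all TA arrays, the reverse of M15481_g_at. The difference was -2.42 ± 0.28 against TA_6h (adjusted p = 9.2e-05) and -2.82 ± 0.35 against TA_1h (adjusted p = 1.9e-04), both lower limits in size because 2 of 4 EOM arrays lie at the floor. Across the 10 numbered samples the log2 values of M15481_at and M15481_g_at had a Pearson r of -0.95. That r is a description over 3 groups, set mostly by the gap between EOM and TA. Why probe sets of 1 accession differ was not tested.

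The other Igf1 probe sets were not called. X06107_i_at read 127 to 219 in EOM, 33.0 to 207 in TA_6h and 39.4 to 124 in TA_1h, a difference of 0.80 ± 0.34 against TA_6h (adjusted p = 0.076). X06107_r_at read -118, -1313, 841 and 1401 in EOM and 392 to 1035 in TA_6h. The EOM arrays spread over the whole range of the TA arrays and beyond it on both sides, and the difference of -1.27 ± 0.98 had a 95% interval of -3.47 to 0.93.

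**Figure D2:**
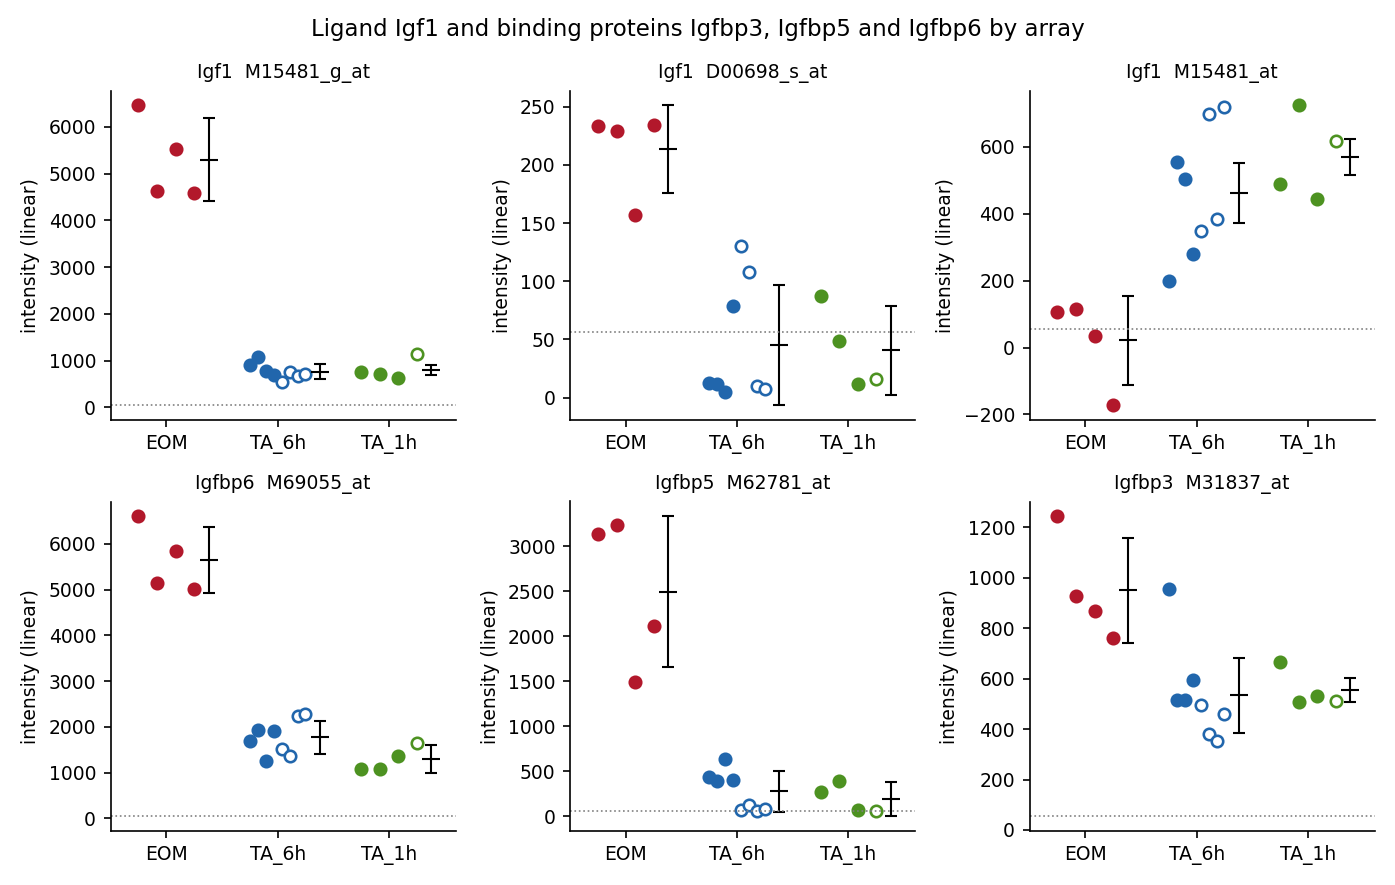
Intensity on a linear axis of 6 probe sets of Igf1, Igfbp6, Igfbp5 and Igfbp3 on each array, by group; hollow points are the low-ratio TA arrays, black bars are means ± SD over numbered samples, and the dotted line is the floor of 56.5. EOM arrays of Igf1 M15481_g_at lie between 4575 and 6455 and those of Igfbp6 between 5015 and 6600, above all TA arrays, whereas Igf1 M15481_at lies lower in EOM.

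Igf2, the ligand best known from fetal growth and paternally expressed by imprinting, gave no single direction over its probe sets. X17012mRNA_s_at, the brightest of them, read 1991, 1499, 2198 and 2067 in EOM, from 2349 through a median of 2660 to 3118 in TA_6h, and 2403, 2098, 1932 and 1198 in TA_1h. All EOM arrays were below all TA_6h arrays, yet within the range of TA_1h. The difference was -0.48 ± 0.18 against TA_6h (adjusted p = 0.052) and 0.05 ± 0.22 against TA_1h (adjusted p = 0.88). It missed the threshold narrowly against TA_6h and passed it in 11 of 26 alternatives. M17960_g_at read 1163 to 1270 in EOM, 926 to 1516 in TA_6h and 905 to 1410 in TA_1h, all overlapping, with a difference from TA_6h of 0.07 and a 95% interval of -0.27 to 0.41.

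M17960_at, of the same accession, was called lower in EOM than in both TA groups. It read 446, 348, 315 and 348 in EOM, from 424 through 572 to 655 in TA_6h, and 724, 680, 579 and 436 in TA_1h. The difference was -0.60 ± 0.20 against TA_6h (adjusted p = 0.028) and -0.72 ± 0.24 against TA_1h (adjusted p = 0.039), and 1 EOM array reached into the range of both TA groups. The 5 low-ratio TA arrays read 424 to 526 and the other 7 TA arrays 579 to 724, without overlap. With only the low-ratio arrays as TA the difference from TA_6h was -0.39 (adjusted p = 0.10), and without them -0.82 (adjusted p = 0.0077). The call against TA_6h was also lost without EOM replicate 2, 3 or 4 or TA_6h replicate 1 or 2, with adjusted p between 0.058 and 0.078. Against TA_1h it was lost without EOM replicate 2, 3 or 4 or TA_1h replicate 1 and with the replicate block (-0.55, adjusted p = 0.12), and without the TA arrays of low GAPDH ratio (-0.59, adjusted p = 0.12).

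E00988mRNA_s_at lay below 0 on every EOM array (-141, -541, -792 and -494), against 60.8 to 384 in TA_6h and 39.9 to 109 in TA_1h. As EOM has only a bound there, the level was estimated as at least 2.44-fold lower than in TA_6h (adjusted p = 0.0051). With every EOM array at the floor EOM has no spread, so this adjusted p may be too small. At this floor the log2 difference had a 95% interval of -1.94 to -0.635. The probe set was not called against TA_1h at this floor (adjusted p = 0.38). Against TA_1h it was called with the floor at the 10th percentile (-2.32, adjusted p = 0.0011) and with log2(value + 50) (-1.29, adjusted p = 0.0047). With the floor at the 40th percentile the call against TA_6h was lost (-0.26, adjusted p = 0.32). X16703_r_at, at 104 to 151 in EOM and 40.1 to 190 in TA_6h, was not called (0.31 ± 0.27). X16703_i_at was above the floor on 2 of 4 EOM arrays, 1 of 8 TA_6h arrays and no TA_1h array.

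Receptors had 3 probe sets. Igf1r, the receptor kinase for both ligands, gave 2 that pointed in opposite directions. L29232_at read 2.20, -96.4, 29.8 and -141 in EOM, from 43.1 through 123 to 316 in TA_6h and 288, 119, 108 and 70.1 in TA_1h, so that EOM was at the floor on all arrays. The level was at least 2.36-fold lower than in TA_6h (adjusted p = 0.045), and against TA_1h no call was made (adjusted p = 0.12). The floor leaves EOM no spread, so these adjusted p may be too small. The call against TA_6h held in 15 of the 25 alternatives that tested the probe set. It was lost with the floor at the 40th percentile (-0.42, adjusted p = 0.17) and without the filter (adjusted p = 0.080). It was also lost without the TA_6h arrays that carry no letter (-1.33, adjusted p = 0.051). Against TA_1h it was called in 4 of 25, among them the floor at the 10th percentile (-2.91, adjusted p = 0.0063). The low-ratio TA arrays read 43.1 to 85.3 and the other TA arrays 108 to 316. Leaving out any EOM replicate or TA_6h replicate 1 or 2 gave adjusted p between 0.078 and 0.12. Without the low-ratio arrays the difference was -2.10 (adjusted p = 3.3e-04), and with only these as TA it was -0.37 (adjusted p = 0.062). M27293_s_at, the brighter one, read 358, 740, 679 and 595 in EOM, from 205 through 390 to 591 in TA_6h, and 454, 393, 471 and 242 in TA_1h. Its difference of 0.53 ± 0.24 from TA_6h was not called (adjusted p = 0.092), and without EOM replicate 1, the lowest, it was 0.75 (adjusted p = 0.011).

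Igf2r, the receptor that clears IGF2, had a single probe set with a wide spread in EOM. U59809_s_at read 811, 292, 145 and -385 on the EOM arrays, from 732 through 1042 to 1626 in TA_6h and 1004, 1255, 1271 and 465 in TA_1h. On 3 of 4 arrays EOM lay below every TA array, and the other reached into both TA ranges. The level was called lower than in TA_6h (-2.33 ± 0.66, adjusted p = 0.016) and missed the threshold against TA_1h (-2.15 ± 0.81, adjusted p = 0.063). Only 3 of 4 EOM arrays were above the floor, so both differences are lower limits in size. The call against TA_6h held in 23 of the 25 alternatives that tested the probe set. Without the low-ratio TA arrays, and so with fewer TA_6h samples, the difference from TA_6h was -2.57 and was not called (adjusted p = 0.060). With only these as TA, which left 1 TA_1h array, the difference from TA_6h was -2.08. Without EOM replicate 1 the difference from TA_1h was -2.80 (adjusted p = 0.0060).

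**Figure D3:**
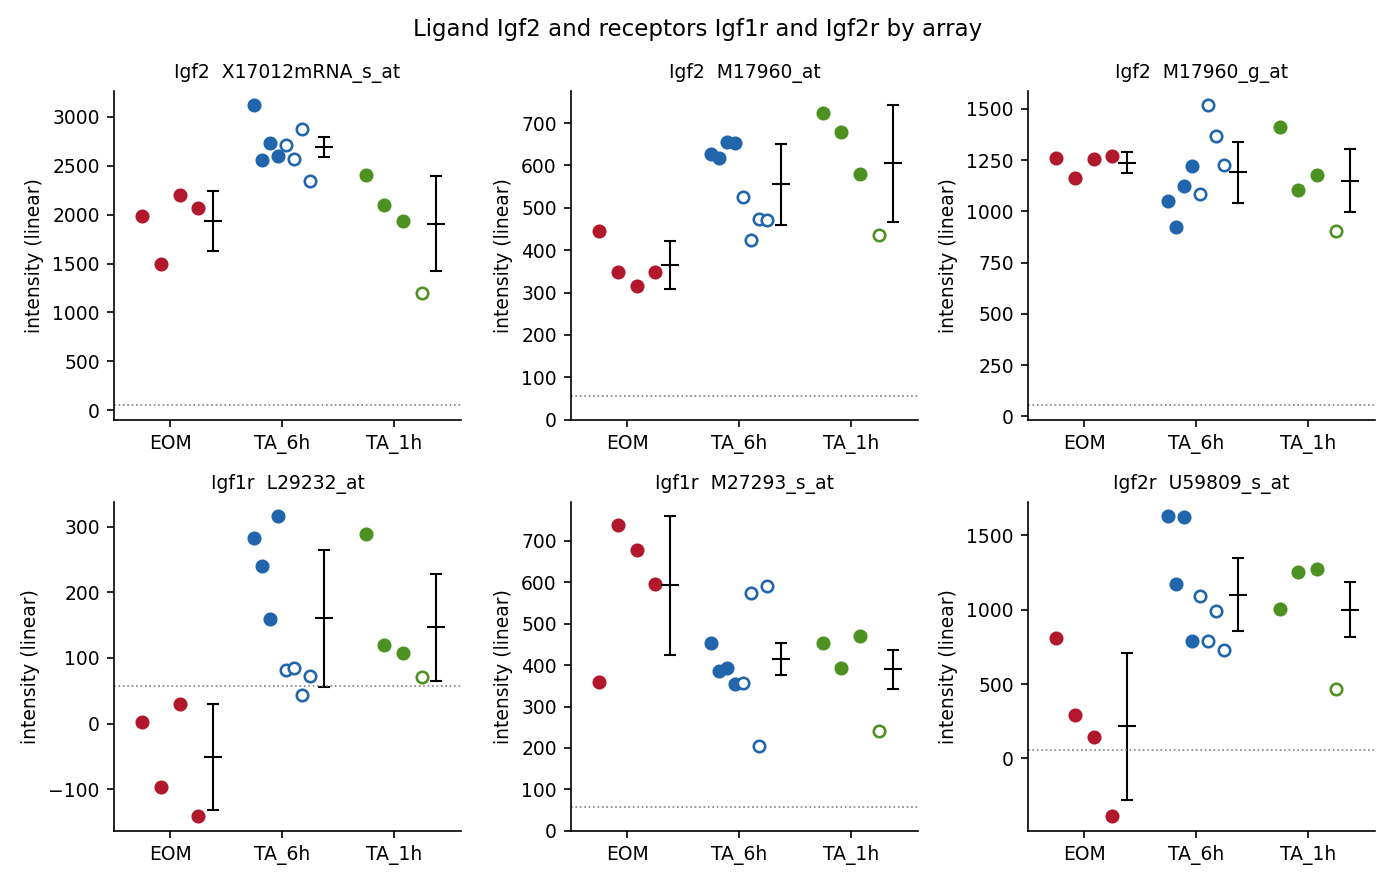
Intensity on a linear axis of 3 Igf2 probe sets, both Igf1r probe sets and the Igf2r probe set on each array, by group; hollow points are the low-ratio TA arrays, black bars are means ± SD over numbered samples, and the dotted line is the floor of 56.5. For Igf2 M17960_at and Igf1r L29232_at the hollow TA points lie below the filled ones, and Igf2r spreads from -385 to 811 in EOM.

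Among the binding proteins, Igfbp6 was higher in EOM than in both TA groups. IGFBP6 binds IGF2 in preference to IGF1 and is made by fibroblasts among other cells. M69055_at read 6600, 5149, 5840 and 5015 in EOM, from 1262 through 1797 to 2283 in TA_6h, and 1080, 1074, 1368 and 1644 in TA_1h. All EOM arrays lay above all TA arrays. The level averaged 5651 ± 729 in EOM, 1772 ± 362 in TA_6h and 1291 ± 303 in TA_1h (SD, n = 4, 4 and 2). It was 3.24-fold higher than in TA_6h (1.70 ± 0.20, adjusted p = 9.2e-05) and 4.42-fold higher than in TA_1h (2.14 ± 0.24, adjusted p = 1.2e-04). Over the 26 alternatives the difference from TA_6h ran between 1.23 and 1.82 and was called in each.

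Igfbp5, whose protein is a binding protein of bone and muscle and is induced in differentiating myoblasts, had the highest difference among the members. M62781_at read 3137, 3230, 1488 and 2111 in EOM, from 61.8 through 261 to 635 in TA_6h, and 264, 387, 66.7 and 51.9 in TA_1h. No TA array reached the lowest EOM array. The difference was 3.63 ± 0.73 against TA_6h, or 12.4-fold (adjusted p = 0.0026), and 4.08 ± 0.89 against TA_1h (adjusted p = 0.0054). The second depends on TA_1h replicate 2, without which it was 2.89 (adjusted p = 0.079).

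rc_AI029920_s_at, the other tested Igfbp5 probe set, read 1874, 1771, 461 and 1335 in EOM, from 229 through 857 to 1566 in TA_6h and 766, 489, 263 and 2275 in TA_1h. The groups overlapped, and the difference of 0.75 ± 0.59 from TA_6h was not called (adjusted p = 0.32). In TA the 2 probe sets went opposite ways with the beta-actin ratio. On the 5 low-ratio arrays rc_AI029920_s_at read 1165 to 2275 and M62781_at 51.9 to 128, and on the other 7 TA arrays they read 229 to 766 and 66.7 to 635. The log2 ratio of M62781_at to rc_AI029920_s_at within an array was 0.66 to 1.69 in EOM, -5.33 to -3.62 on the low-ratio TA arrays and -1.98 to 0.79 on the other TA arrays.

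Without the low-ratio arrays the M62781_at difference from TA_6h was 2.38 (adjusted p = 0.019), and with only these as TA it was 4.88 (adjusted p = 4.2e-04). The rc_AI029920_s_at difference was 1.70 without them (adjusted p = 0.064) and -0.21 with only these as TA (adjusted p = 0.81). With the low ratio as a batch term in the fit it was called, at 1.76 against TA_6h (adjusted p = 0.0019) and 1.30 against TA_1h (adjusted p = 0.019). That fit took each array as its own sample, so arrays of 1 number counted as independent. Of 26 alternatives it was the only one to call rc_AI029920_s_at in either comparison. Among the members 3 of 23 had no overlap between the low-ratio and the other TA arrays, and so had 1013 of the 7640 probe sets tested. The cause of the split was not tested. The Igfbp5 probe set left out of the tests, rc_AI070577_at, was above the floor on 1 of 16 arrays.

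**Figure D4:**
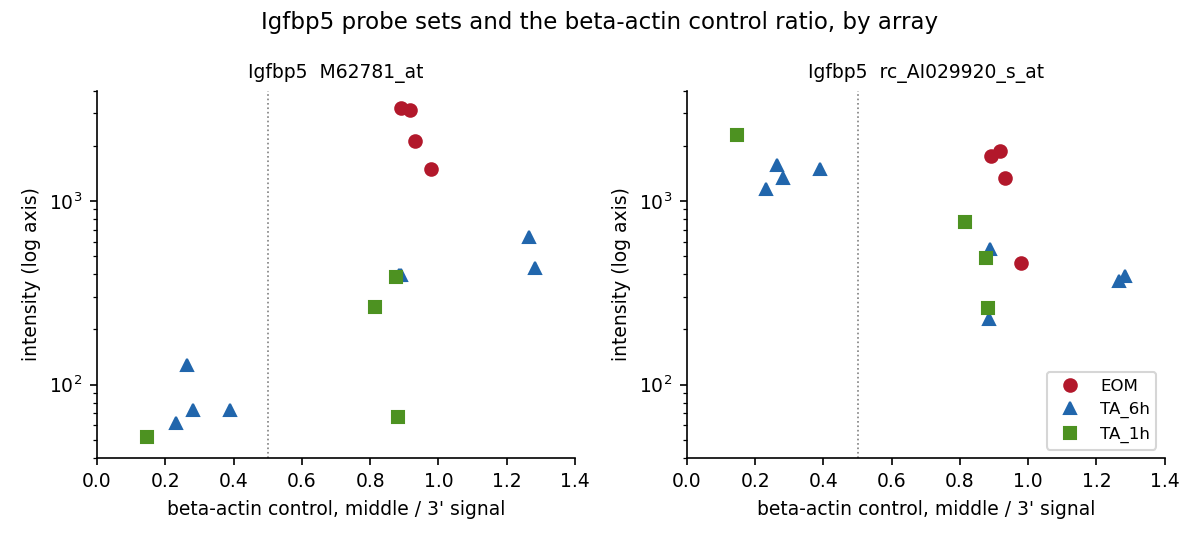
Intensity (log axis) of both tested Igfbp5 probe sets on each array against the beta-actin control's ratio of middle to 3′ signal, with EOM as circles, TA_6h as triangles and TA_1h as squares; the dotted line is a ratio of 0.5. On the 5 TA arrays left of the line M62781_at reads 51.9 to 128 and rc_AI029920_s_at 1165 to 2275, while EOM arrays all have ratios between 0.891 and 0.978.

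Igfbp3, the main IGF carrier in serum together with the acid-labile subunit, was modestly higher in EOM by 1 of its 2 probe sets. M31837_at read 1243, 929, 867 and 762 in EOM, from 355 through 505 to 957 in TA_6h and 668, 506, 530 and 510 in TA_1h. The difference was 0.87 ± 0.22 from TA_6h (adjusted p = 0.0099) and 0.76 ± 0.27 from TA_1h (adjusted p = 0.051). A single TA_6h array reached the EOM range, and no TA_1h array did. The call against TA_6h was lost without the low-ratio TA arrays (0.58, adjusted p = 0.064) and with arrays scaled to a common median (0.40, adjusted p = 0.15). rc_AI009405_s_at read 156 to 524 in EOM, 167 to 562 in TA_6h and 211 to 1157 in TA_1h, with a difference of -0.07 ± 0.41 from TA_6h.

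Igfbp2, a binding protein abundant in the fetus, was not called by any of its 3 probe sets at the settings used here. M91595exon_s_at, the brightest, read 505 to 568 in EOM, 466 to 864 in TA_6h and 179 to 878 in TA_1h. Its difference from TA_6h was -0.29 with a 95% interval of -0.73 to 0.16. J04486_at read 62.0 to 235 in EOM and 47.6 to 180 in TA_6h (0.74 ± 0.46). A09811cds_s_at lay between -412 and -381 on all EOM arrays, and 3 of 8 TA_6h arrays were above the floor. With the floor at the 10th percentile A09811cds_s_at was called at -1.90 from TA_6h (adjusted p = 8.2e-06) and -1.95 from TA_1h (adjusted p = 4.1e-05), and with log2(value + 50) at -1.06 (adjusted p = 7.6e-05) and -1.07 (adjusted p = 3.9e-04). With arrays scaled to a common median M91595exon_s_at was called at -0.75 from TA_6h (adjusted p = 0.013). In the rat genome Igfbp2 and Igfbp5 are neighbouring protein-coding genes on chromosome 9, and Igfbp3 neighbours Igfbp1 on chromosome 14, by RefSeq order.

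Partners in the circulation were read for comparison. Igfals, the acid-labile subunit that holds IGF and IGFBP3 in a ternary complex, had 3 probe sets, and each was called lower in EOM than in TA_6h, with log2 differences of -1.83 ± 0.28, -1.07 ± 0.17 and -0.47 ± 0.15. Its rc_AA924289_s_at read 112 to 149 in EOM, 167 to 680 in TA_6h and 556 to 782 in TA_1h. Igfbp1, a binding protein of liver, was above the floor on 1 of 8 TA_6h arrays and on no EOM or TA_1h array.

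Between TA_6h and TA_1h limma called 0 of 21 members and 0 of 7640 probe sets (0% in each direction). At an unadjusted p under 0.05 stood 2 members and 424 probe sets. Both members were Igf2 probe sets and were higher in TA_6h, E00988mRNA_s_at by 0.85 ± 0.36 and X17012mRNA_s_at by 0.54 ± 0.22, each with an adjusted p of 0.88. For Igf1 M15481_g_at the difference was -0.07 with a 95% interval of -0.60 to 0.46, and for Igfbp6 it was 0.45 ± 0.24. With only the low-ratio arrays as TA, which left 1 TA_1h array whose spread was assumed to be that of the other groups, E00988mRNA_s_at was called (0.81, adjusted p = 0.047), as were 681 probe sets in all.

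The genes whose log2 pattern over the 10 numbered samples was most like a member's were taken by Pearson r, through the brightest probe set of each. They share their arrays, and r follows the gap between EOM and TA. For Igf1 (M15481_g_at) they were Efemp1 (0.997), Fkbp3 (0.993) and Cript (0.993), and for Igfbp6 Rab11a (0.989), Ptn (0.988) and Rcn2 (0.987). For Igfbp3 they were Tkt (0.964), Sh2b1 (0.962) and Anxa2 (0.953), and for Igf2r Gja4 (0.962), Alox15 (0.961) and Notch1 (0.956). Igf1r, through M27293_s_at, had Adra2a (0.968), Trh (0.929) and Cdh6 (0.926). Patterns near those of the remaining members were looser: Dlk1 (0.904), Tor1aip2 (0.896) and Kdm3a (0.878) for Igf2, Thra (0.864), Adrb3 (0.852) and Ap1s3 (0.841) for Igfbp5 through rc_AI029920_s_at, and P3h4, Pnck and Plin1 (0.821 to 0.834) for Igfbp2. The Igfbp5 genes are thus those most like the probe set that was not called and that divided the TA arrays by beta-actin ratio, not M62781_at. Dlk1, which like Igf2 is an imprinted gene expressed from the paternal copy, averaged 394 ± 23.7 in EOM, 881 ± 74.4 in TA_6h and 487 ± 168 in TA_1h, and differed by -1.13 ± 0.23 from TA_6h (adjusted p = 0.0030) and by -0.02 ± 0.28 from TA_1h.

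Around the system, 66 of 106 listed pathway genes were tested, each through its brightest probe set. Against TA_6h 16 were called higher and 27 lower in EOM, that is 24.2% and 40.9%, where over all 4317 genes 22.6% were called higher and 25.3% lower. Their median difference was -0.28 and that of all genes -0.08. Against TA_1h 10 were called higher and 15 lower, beside 18.4% and 19% of all genes. With arrays scaled to a common median 8 were higher and 34 lower than in TA_6h, beside 12.9% and 39.0% of all genes, and 8 were higher and 30 lower than in TA_1h, beside 11.7% and 31.4%. Without the low-ratio TA arrays 12 were higher and 23 lower than in TA_6h, beside 21.6% and 23.4% of all genes.

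Among receptor substrates and adaptors 3 of 11 genes rose and 3 fell against TA_6h. Irs2, a docking protein of the insulin and IGF1 receptors, was at the floor on all EOM arrays and at least 6.26-fold lower by 1 of its 3 probe sets (adjusted p = 4.0e-05), and the other 2 were not called. Ptpn11, the phosphatase SHP2, differed by -2.54 ± 0.17 through 1 of its 4 probe sets, a lower limit in size with 1 of 4 EOM arrays above the floor. Ptpn1, a phosphatase that turns these receptors off, differed by -1.45 ± 0.34, and the adaptor Crk by 1.62 ± 0.57. Without the low-ratio TA arrays, and so with 2 numbered TA_6h samples, neither Ptpn1 (-1.13, adjusted p = 0.063) nor Crk (0.62, adjusted p = 0.14) was called. Insrr, an insulin receptor-related receptor, averaged 2573 ± 187 in EOM, 1421 ± 79.1 in TA_6h and 1282 ± 244 in TA_1h (0.86 ± 0.15 from TA_6h, adjusted p = 0.0011), though another of its 3 probe sets was called lower. Irs1, the other main docking protein, had a difference of -0.02 ± 0.38 and was not called.

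In the PI3 kinase, Akt and mTOR branch 3 of 20 rose and 9 fell. The summed level of this list was 28747 to 30572 in EOM, 45433 to 65498 on the low-ratio TA arrays and 27102 to 33542 on the other TA arrays. This sum includes Trim63, the ubiquitin ligase MuRF1 of muscle protein breakdown, and was not taken without it. Trim63 alone read 1497 to 1711 in EOM, 14832 to 29371 on the low-ratio TA arrays and 2887 to 4895 on the other TA arrays. It averaged 1624 ± 92.6 in EOM, 12676 ± 11735 in TA_6h and 6950 ± 4147 in TA_1h. The difference was -2.41 ± 0.63 from TA_6h (adjusted p = 0.010), was not called against TA_1h (-1.85 ± 0.77, adjusted p = 0.087), and without the low-ratio TA arrays was -1.16 from TA_6h (adjusted p = 0.0023). Gsk3b, a kinase that Akt inhibits, differed by -1.94 ± 0.40, Eif2b5, a translation initiation factor subunit, was at least 5.96-fold lower with all EOM arrays at the floor, and Inpp5d, the leukocyte phosphatase SHIP1, differed by 2.14 ± 0.29. Mtor itself averaged 595 ± 85.4 in EOM, 1120 ± 65.0 in TA_6h and 940 ± 216 in TA_1h (-0.92 ± 0.18 from TA_6h, adjusted p = 0.0022). Akt1 was not called (-0.07 ± 0.17).

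In the Ras and MAP kinase branch 2 of 5 rose and 2 fell. The phosphatases Dusp1 (1.39 ± 0.31, 1 of 3 probe sets called) and Dusp6 (0.66 ± 0.21) were higher. Nras (-1.65 ± 0.46, 1 of 2 probe sets called and 1 of 4 EOM arrays at the floor) and Map2k2 (-0.88 ± 0.28) were lower. Without the low-ratio TA arrays Dusp6 (0.41, adjusted p = 0.24), Nras (-1.13, adjusted p = 0.071) and Map2k2 (-0.41, adjusted p = 0.081) were not called.

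In the growth hormone axis 2 of 12 rose and 5 fell. Cish, a feedback inhibitor of cytokine receptors that growth hormone induces, averaged -24.3 ± 137 in EOM, 272 ± 123 in TA_6h and 1082 ± 715 in TA_1h (-1.85 ± 0.45 from TA_6h, adjusted p = 0.0075). Socs3, of the same family, differed by -1.32 ± 0.25. For both genes 2 of 4 EOM arrays lie at the floor, so these differences are lower limits in size. Ghrh differed by -3.20 ± 0.37 through 1 of its 5 probe sets called. Ghsr, the ghrelin receptor, differed by 1.20 ± 0.36 while its other 2 probe sets were called lower. Without the low-ratio TA arrays, and so with fewer TA_6h samples, its difference was nearly the same but was not called (1.16, adjusted p = 0.11). The receptor gene Ghr itself was not called (-0.45 ± 0.31, adjusted p = 0.26).

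Of binding protein partners and proteases 5 of 13 rose and 4 fell. Mmp2, a matrix protease that can cut binding proteins, averaged 2526 ± 289 in EOM, 927 ± 99.0 in TA_6h and 685 ± 74.2 in TA_1h (1.45 ± 0.16 from TA_6h, adjusted p = 6.0e-05), and Plat, tissue plasminogen activator, differed by 1.70 ± 0.19. Ctsd, the lysosomal protease cathepsin D, differed by -1.72 ± 0.32 through 1 of its 2 probe sets called, and Stc1, stanniocalcin 1, by -1.88 ± 0.24. Among other Igf2 and Igf2r partners 1 of 5 rose and 4 fell. H19, the noncoding RNA imprinted beside Igf2, averaged 9694 ± 901 in EOM, 25477 ± 3876 in TA_6h and 24648 ± 2783 in TA_1h. Its log2 differences were -1.38 ± 0.16 from TA_6h and -1.34 ± 0.20 from TA_1h, and against TA_6h 1 of its 2 probe sets was called lower. Tgfb1, whose latent protein binds the IGF2 receptor, was at least 3.86-fold lower with all EOM arrays at the floor, Dlk1 was lower as given above, and Lamp2, a lysosomal membrane protein, differed by 1.88 ± 0.15. With the 4 arrays of low GAPDH ratio left out, the calls of Crk (adjusted p = 0.092), Dusp6 (adjusted p = 0.051), Map2k2 (adjusted p = 0.055), Ghsr (adjusted p = 0.11) and Dlk1 (adjusted p = 0.080) were lost among the pathway genes named here.

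**Figure D5:**
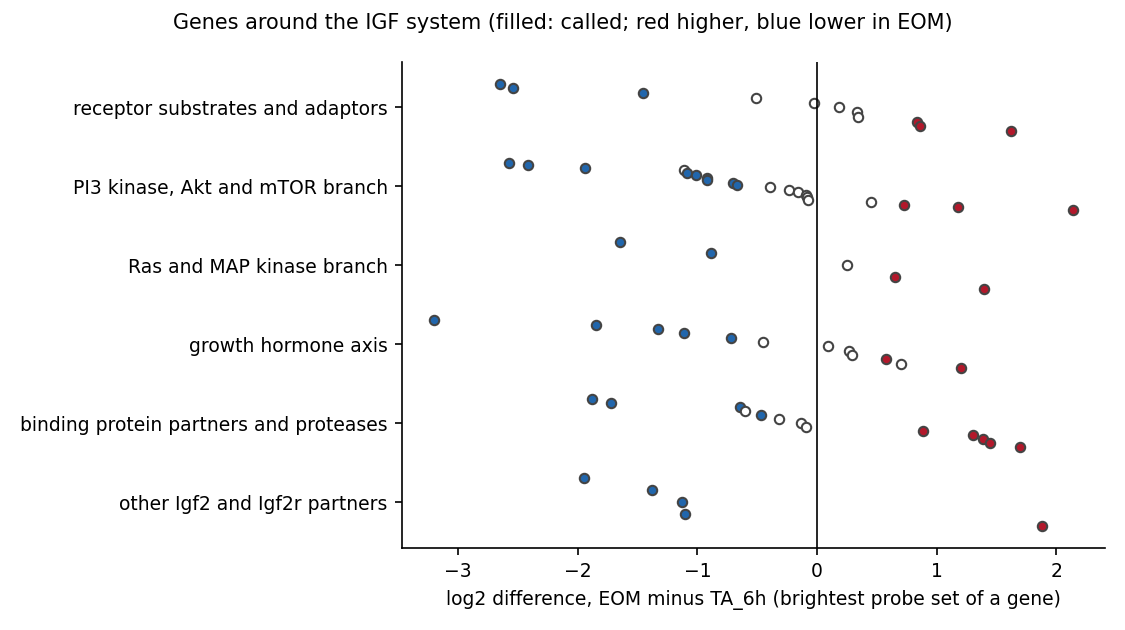
Log2 difference between EOM and TA_6h of the 66 pathway genes tested, 1 point a gene, by list; filled points were called at an adjusted p under 0.05, red ones higher and blue ones lower in EOM. Filled blue points outnumber red ones in the PI3 kinase, Akt and mTOR branch, where 9 of 20 genes were lower and 3 higher, and points spread to both sides of 0 in every list.

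Arrays were checked by markers. For comparison, over all 4317 genes by their brightest probe set 22.6% were called higher and 25.3% lower in EOM than in TA_6h. The 3 myosin genes listed as markers of extraocular muscle, Myh13, Myh3 and Myh8, were called higher in EOM. Their summed levels were 28777 to 35823 in EOM, 3443 to 17687 in TA_6h and 2904 to 5123 in TA_1h. Myh3 is not particular to EOM, as it averaged 16797 ± 2276 in EOM and 7828 ± 6503 in TA_6h. Some markers of other cells were called higher in EOM than in TA_6h, as were Igf1 M15481_g_at and D00698_s_at, Igfbp5 M62781_at and Igfbp6, while Igf1 M15481_at was lower and the other tested probe sets of Igf1 and Igfbp5 were not called. Macrophage and leukocyte markers were called higher than in TA_6h for 7 of 9 genes and lower for none, with sums of 12144 to 17306 in EOM, 3511 to 6406 in TA_6h and 3422 to 4215 in TA_1h. Nerve and Schwann cell markers rose for 5 of 7 and fell for 1, with sums of 10847 to 15447 in EOM, 4789 to 7742 in TA_6h and 4047 to 7691 in TA_1h. Fibroblast and matrix markers rose for 6 of 12 and fell for 1, with sums of 79455 to 96962 in EOM, 57316 to 93210 in TA_6h and 45495 to 60490 in TA_1h, and none of these 3 lists had a gene at the floor on all EOM arrays. Adipocyte markers rose for 3 of 7 and fell for 1, with Plin1 and Lipe at the floor in EOM, and muscle fibre markers rose for 1 of 13 and fell for 6. Higher and lower calls against TA_6h were 2 and 2 of 7 for endothelium, 3 and 4 of 8 for smooth muscle, 2 and 2 of 5 for gland and cornea, and 0 and 2 of 5 for red blood cells. The part of these cells in the results on the members was not tested. In whole muscle a different number of cells of a type and a different RNA level per cell cannot be told apart.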

How the data were processed

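The authors deposited 1 intensity, not on a log scale, for each array and probe set. Their way of summarising probes, not given in the sources used here, may differ between EOM and TA. In the deposited intensity columns the mean without the highest and lowest 2% was 801.1 to 801.8 on each array, which shows a shared scaling, and no further scaling was applied. Above the floor lay 66.3% to 67.2% of probe sets on EOM arrays and 74.6% to 81.0% on TA arrays. The number of arrays limits the precision.

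The floor at the 25th percentile was applied before taking log2. Arrays of 1 number and group were averaged, except in alternatives that took each array as its own sample. The alternative with the low beta-actin ratio as a batch term was among these. The TA_6h arrays 1 and 2, which carry no letter, were joined with 1b and 2b, which is an inference. The probe sets that exceeded the floor on 4 or more arrays, without array controls, were fitted on all 3 groups together with limma 3.58.1 (lmFit and eBayes) in R 4.3.3, with 7 residual and 2.83 prior degrees of freedom. Adjusted p-values are Benjamini-Hochberg values over the 7640 probe sets, and every adjusted p in the text comes from limma. A group at the floor on all arrays has a bound, given as "at least". This bound belongs to the estimate at the floor used and does not cover its standard error. Fold values come from floored log2 means. The fit was tested on simulated data.

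Symbols came from the platform's probe table: 7018 probe sets had 1 symbol, 308 several and 1473 none listed. The genes named were all members, the 3 genes most like each, and up to 4 called genes of each pathway list with the largest differences. Insrr, Irs1, Akt1, Mtor, Ghr and the circulating partners were named outside that rule, after their values were seen. Members and lists were chosen with earlier results of these data known.

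Alternatives changed the floor, filter, scaling, averaging, moderation, replicate number and beta-actin arrays, and 1 alternative without the arrays of low GAPDH ratio was added after seeing the data. Each numbered sample was left out in turn. Same-numbered EOM and TA_6h samples correlated in their deviations from the group means at 0.105, 0.021, 0.032 and 0.071, so numbers were not taken as pairs. Plots used matplotlib 3.10.9 (Python 3.11.15).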

Additional observations from a re-analysis of the deposited data

Results flagged for a closer look

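Of 39 groups of 4 samples of the members examined, 3 held a sample that stood apart from the others by Dixon's ratio, the gap to the nearest sample over the whole range. Chance gives about 1 in 20. Igf1 D00698_s_at was lowest in EOM replicate 3 (157), with a ratio of 0.943. Igf2 M17960_g_at was lowest in EOM replicate 2 (1163), with a ratio of 0.841, although the 4 EOM arrays spread little. Igf2 X16703_r_at was lowest in TA_6h replicate 4, whose 2 arrays averaged 58.5, with a ratio of 0.835.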

How the results depend on the processing

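Over 26 alternatives, 10 of which left out a numbered sample, no called member turned its direction. Of 1593 values of single member differences under these alternatives, 1413 stayed on their side of the threshold with the same sign, 55 passed it, 28 lost it, and 97 moved or changed sign without being called. The count of members called between EOM and TA_6h, 10, was 5 when probe sets had to be above the floor on all 16 arrays, where 10 members were left to test and 47.7% of all probe sets were called (47.2% at the main setting). Between EOM and TA_1h the count of 6, beside 37.2% of all probe sets, became 10 with the floor at the 10th percentile (42.0% of all). It was also 10 with log2(value + 50) and no floor (45.2%) and with the low beta-actin ratio as a batch term (47.0%). The batch-term fit also took each array as its own sample, which without the batch term gave 8 (40.4%). Between TA_6h and TA_1h the count of 0 became 1 with only the low-ratio arrays as TA (8.91% of all). The count of pathway genes called between EOM and TA_1h was 25, beside 37.4% of all genes. It became 38 with arrays scaled to a common median (43.0%), 38 without the low-ratio TA arrays (46.4%) and 39 with the batch term (47.0%). With each array as its own sample and no batch term it was 30 (41.1%). No alternative had been planned for the counts of pathway genes, and all were applied to them after the data were seen. The causes of these changes were not tested. Leaving out a numbered sample gave 8 to 11 members called between EOM and TA_6h, beside 41.3% to 46.0% of all probe sets. Between EOM and TA_1h it gave 5 to 8, beside 24.4% to 39.9%, the lowest share without TA_1h replicate 1. Between the TA groups it gave 0, beside 0% to 0.0131%. With the replicate block 11, 6 and 0 were called, beside 45.9%, 33.2% and 0% of all probe sets. Without the TA arrays of low GAPDH ratio, added after seeing the data, 8, 5 and 0 were called, beside 40.7%, 32.7% and 0.0785%. Of the calls against TA_6h, those of Igf1 M15481_g_at, D00698_s_at and M15481_at, Igfbp5 M62781_at and Igfbp6 held in every alternative that tested them. Levels at or near the floor limit Igf1 D00698_s_at and M15481_at, Igf2 E00988mRNA_s_at, Igf1r L29232_at and Igf2r U59809_s_at.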
